A study of Rattus norvegicus with 125 samples.

Results

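The nuclear-encoded subunits of oxidative phosphorylation were followed through the rat nephron. Members were every gene symbol of the deposited segment table that starts with Ndufa, Ndufb, Ndufc, Ndufs, Ndufv, Uqcr, Cox4 to Cox8 or Atp5, without the assembly factors named Ndufaf, together with Sdha, Sdhb, Sdhc, Sdhd and Cyc1. The rule uses names only and found 82 of 17144 gene symbols (85 of 17974 transcript entries). Of these, 71 are structural subunits: 33 of complex I, 4 of complex II, 9 of complex III, 10 of complex IV and 15 of complex V. A further 6 are isoforms or paralogs known from other tissues (Cox4i2, Cox6a2, Cox6b2, Cox8b, Cox8c and Ndufa4l2). The last 5 match the names without being subunits in the strict sense: Ndufa10l1 (an Ndufa10-like entry), Cox6c-ps1 (a pseudogene), Cox7a2l (a supercomplex factor), Atp5s (coupling factor B) and Atp5sl (its relative).

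Kidney tubules were dissected by hand from collagenase-perfused left kidneys of adult male Sprague-Dawley rats of 200 to 250 g, and RNA of single segments was sequenced. The 105 tubule libraries fall into 14 segments. S1, S2 and S3, the parts of the proximal tubule, had n = 7 each. Among the thin limbs, the descending limb of short loops (SDL) had n = 10, that of long loops n = 9 in the outer medulla (LDLOM) and n = 4 in the inner medulla (LDLIM), and the ascending one (tAL) n = 7. For the thick ascending limb there were n = 7 from the medulla (mTAL) and n = 7 from the cortex (cTAL), followed by n = 8 for the distal convoluted tubule (DCT) and n = 6 for the connecting tubule (CNT). Collecting ducts came from the cortex (CCD, n = 11), the outer medulla (OMCD, n = 7) and the inner medulla (IMCD, n = 8). Another 5 libraries are glomeruli of adult male rats of the same strain, with no weight or treatment in the labels. In a separate experiment, 8 CCD libraries came from male Sprague-Dawley rats aged 5 weeks, all with minipumps releasing 5 ng of DDAVP, a vasopressin analog, per hour. Of these rats, 4 controls received 25 mL of water a day and 4 water-loaded rats 50 mL for 4 days, both in gelled food.

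Mitochondria pass electrons from NADH (complex I) and succinate (complex II) through complex III to cytochrome c and on to complex IV, cytochrome c oxidase, where oxygen is reduced. Protons pumped along the way drive ATP synthase, complex V. In the kidney this ATP feeds the sodium pump: the proximal tubule, the thick ascending limb and the distal convoluted tubule are packed with mitochondria, whereas thin limb cells hold few and the inner medulla works largely by glycolysis. Subunits encoded by mitochondrial DNA (the Nd genes, cytochrome b, Cox1 to Cox3 and ATP6 and ATP8) are no members.

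Values are RPKM, that is, read numbers divided by transcript length and by the library's size. Counts were not used here, so depth and counting error are unknown. Tubule libraries held 1438 to 8574 genes and 59 to 76 members at 1 RPKM or more. In 13 of the 105 tubule libraries the summed RPKM of another cell type's marker list exceeded that of the segment's own list. These were tAL 1 and tAL 2 (endothelial lists of 2729 and 3071 RPKM beside thin limb lists of 82.9 and 16.7), LDLOM 1 (proximal list 2331), SDL 2 (pericyte list 1719), and 9 libraries in which the leukocyte list, mostly Cd74, was the larger (S1 3, 4 and 5, S2 4, SDL 9, mTAL 5, DCT 2, 3 and 5). Some markers had their highest medians where the labels place them. These were Slc34a1 in the proximal tubule, Aqp1 in descending limbs, Umod in the thick limb, Slc12a3 in the DCT and Aqp2 in CNT and collecting ducts. Others of these lists did not. Kcnj1, of the thick limb list, had medians of 5.10 RPKM in mTAL and 7.29 in cTAL but 27.7 in OMCD. Slc14a2, of the thin limb list, was highest in IMCD, at 304. Scnn1b and Scnn1g, of the principal cell list, had medians of 0.0893 and 0.0367 in IMCD. Pvalb was at 0 in every DCT library. The tAL libraries were uneven also in that tAL 6 and tAL 7 had thin limb lists of 4668 and 5464 RPKM against 319 to 674 in tAL 3, 4 and 5. In material of this kind fewer cells of a type and less RNA per cell cannot be told apart. No label of a segment or glomerulus library says that replicates came from separate rats. A p-value for these speaks only of the spread among libraries, which may be technical. The water-load labels number the rats.

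Levels of different members depend on the transcript model behind the RPKM. The segment values were deposited with and without polyadenylation-site (PA-seq) data, and the table with these data is the one used here. Of 77 members at 1 RPKM or more in a table, 38 had the same mean within 1.1-fold in both, 26 were lower by over 1.5-fold with PA-seq data and 8 of these by over 4-fold, while 2 were higher by over 1.5-fold. Uqcr10, a small complex III subunit, averaged 16.2 RPKM in one table and 317 in the other, and Ndufa1, an accessory subunit of complex I, 23.7 and 232. Across libraries the log2 ratio of the 2 tables had an SD of 0.16 for Uqcr10 (101 libraries) and 0.01 for Ndufa1 (99 libraries). Levels are therefore compared within a gene and not ranked between genes. Atp5f1, subunit b of ATP synthase, had a highest segment mean of 0.129 RPKM (mTAL) and was not tested. Cox6b1 and Cox7a1 are not analysed here.

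The share of a library's summed RPKM that belonged to the 82 members varied along the nephron. The median share was 9.63% in S1, 6.21% in S2 and 7.23% in S3, then 4.07% in SDL, 5.80% in LDLOM, 1.87% in LDLIM and 2.20% in tAL. It stood at 12.8% in mTAL, 11.7% in cTAL and 12.1% in DCT, at 6.30% in CNT, 6.24% in CCD and 7.38% in OMCD, and at 2.60% in IMCD. The 7 mTAL libraries (7.79% to 17.6%) lay above the 7 tAL libraries (1.34% to 5.38%), and the 7 OMCD libraries (6.64% to 7.99%) above the 8 IMCD libraries (1.51% to 3.51%). Glomeruli held 1.36% to 2.37%. With the table without PA-seq data the medians were higher (16.2% in mTAL, 3.11% in tAL, 9.38% in OMCD and 3.51% in IMCD), and the same 2 pairs of groups did not overlap.

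**Figure D1:**
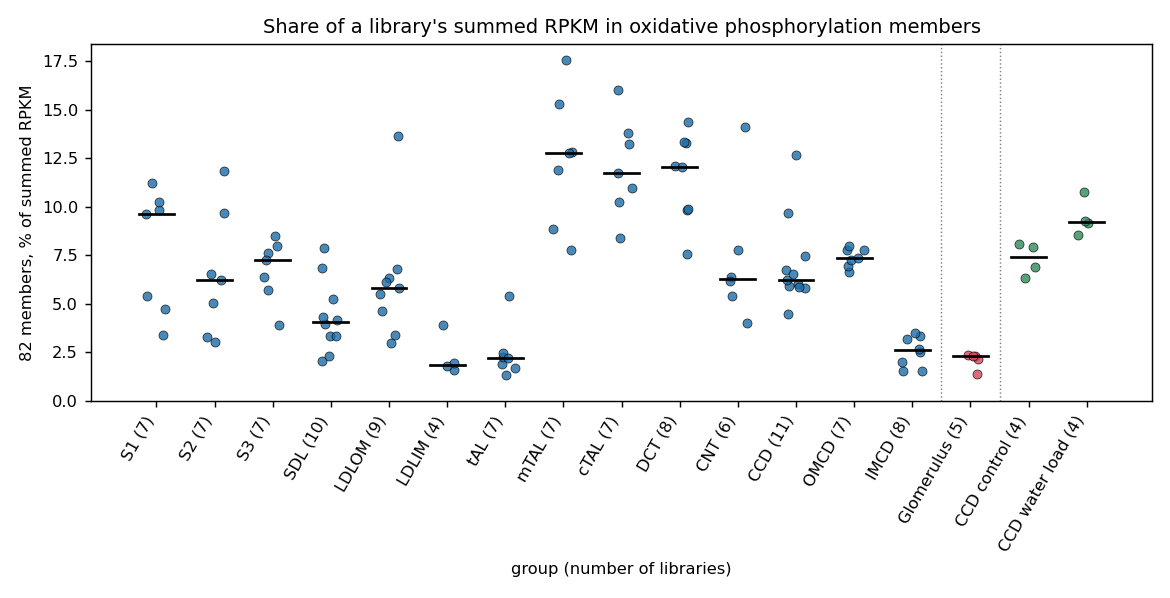
Percent of each library's summed RPKM that falls to the 82 members (vertical axis), by group (horizontal axis, number of libraries in brackets); points are libraries and bars medians. Blue marks tubule segments, red glomeruli and green the water-load experiment. The mTAL libraries, at 7.79% to 17.6%, lie above all tAL libraries, and the OMCD libraries above all IMCD libraries.

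Of the 71 structural subunits, 22 had their highest segment mean in DCT, 17 in cTAL, 10 in mTAL, 7 in OMCD, 6 in S3 and 4 in S1. The lowest mean was in tAL for 40, in LDLIM for 14, in LDLOM for 6 and in SDL for 5. An F test over the 14 segments called 41 of the 77 members tested at an adjusted p under 0.05, where 41.5% of all 11078 genes tested were called. By complex it called 16 of 33 tested subunits of complex I, 0 of 4 of complex II, 7 of 9 of complex III, 9 of 10 of complex IV and 8 of 14 of complex V, with Cox4i2 as the last. The smallest p-values belonged to Atp5g1 (adjusted p = 7.88e-09), Cox5b (1.55e-08), Atp5g3 (2.5e-08) and Uqcrq (8.3e-08). Of 77 members 0 were selective for 1 segment, where 1.19% of 11078 genes were (132, of which 67 in IMCD). Selective means above each of the other 13 by at least 1 on the log2 scale with the largest of the 13 p-values under 0.05 after adjustment.

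**Figure D2:**
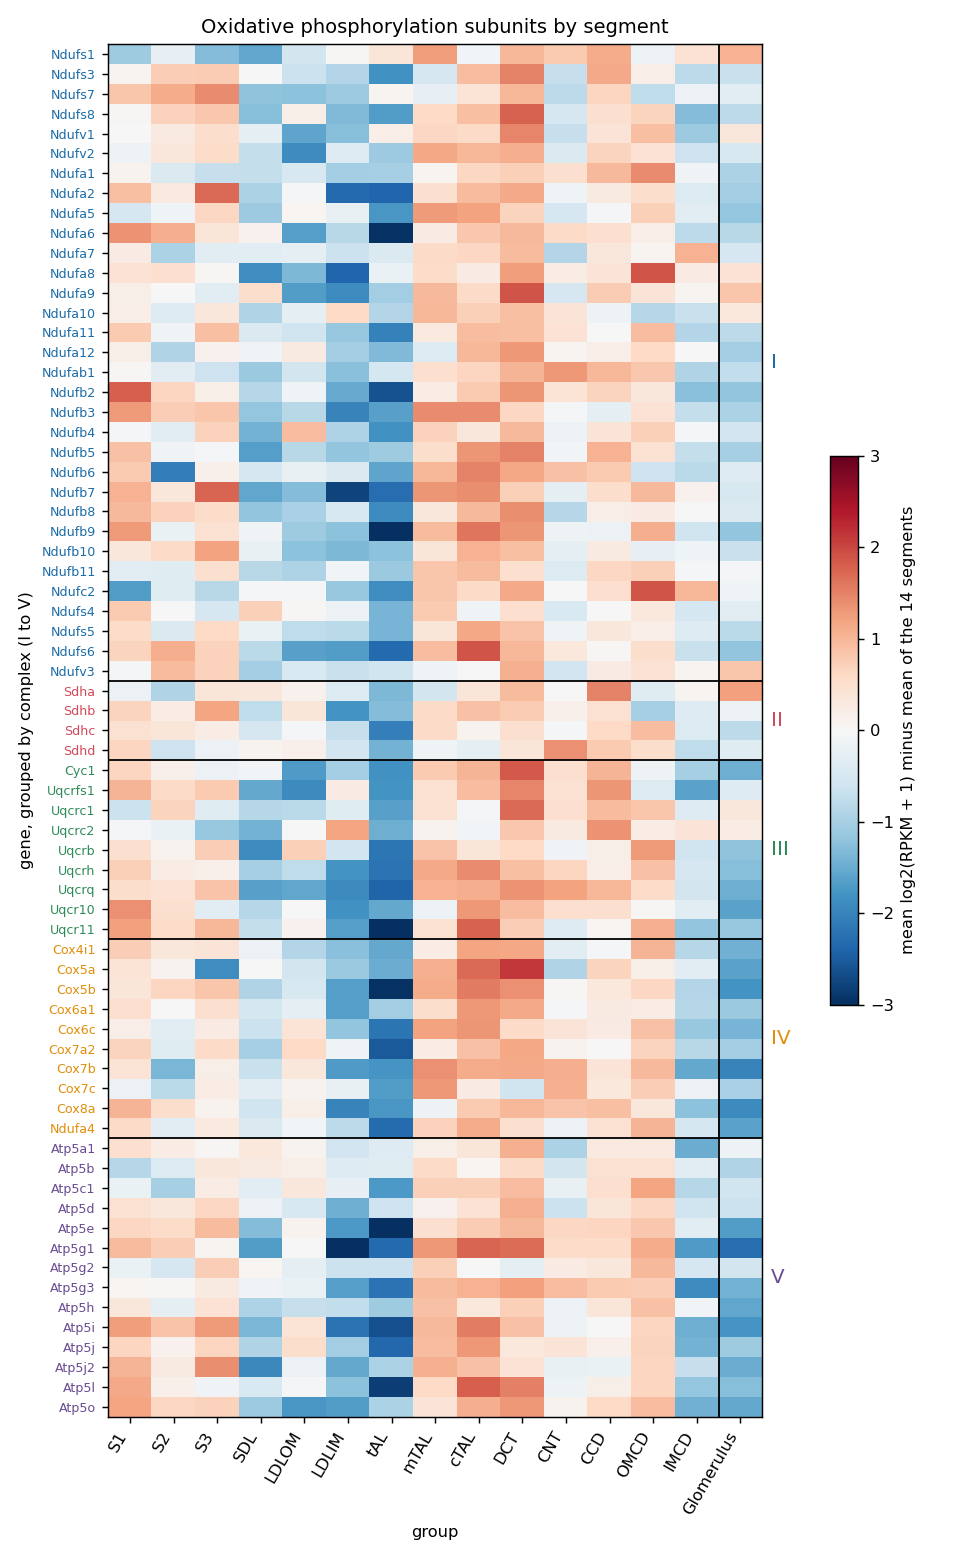
Group mean of log2(RPKM + 1) of 69 of the 70 tested structural subunits (rows, grouped by complex I to V) in the 14 segments and glomeruli (columns), minus the gene's mean over the 14 segments. Red is above and blue below that mean, and the scale stops at 3 in both directions. The tAL, LDLIM and IMCD columns are mostly blue, and those of mTAL, cTAL and DCT mostly red.

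A core or ubiquitous subunit of each complex shows how uneven single libraries were. Ndufs1, the iron-sulfur core subunit of complex I, had its highest segment mean in mTAL, at 114 ± 201 RPKM (SD, n = 7), and its libraries there ran from 2.69 to 566. In SDL its median was 0.939 RPKM and its highest library 173, so the groups overlapped. Sdha, the flavoprotein of complex II, had its highest mean on the log2 scale in CCD (187 ± 118 RPKM, n = 11) and its lowest in tAL (79.5 ± 102, n = 7). Uqcrc1, core protein 1 of complex III, ranged from 144 ± 170 RPKM in tAL (n = 7) to 858 ± 668 in DCT (n = 8). None of these 3 was called by the F test (adjusted p = 0.33, 0.618 and 0.189). Atp5b, the catalytic beta subunit of complex V, was not called either (adjusted p = 0.378): its means ran from 755 ± 434 RPKM in S1 (n = 7) to 2462 ± 1917 in DCT (n = 8), with 1643 ± 2152 in tAL (n = 7). Atp5b alone made up 14.5% ± 12.6 (SD, n = 7) of the summed RPKM of structural subunits in tAL and 2.90% ± 1.46 (n = 7) in S1. Cox4i1, the ubiquitous form of subunit IV of cytochrome c oxidase, was called (adjusted p = 1.28e-05), with means between 512 ± 287 RPKM in tAL (n = 7) and 3661 ± 2251 in cTAL (n = 7).

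The spread between libraries of a segment was wide. The median SD of structural subunits on the log2(RPKM + 1) scale was 0.88 in LDLIM, 1.11 in OMCD and 2.14 in LDLOM, where the median SD of all tested genes was 1.28, 1.31 and 1.56. Around the segment means, pairs of structural subunits correlated across the 105 libraries with a median Pearson r of 0.196. The value was 0.157 for mitochondrial ribosomal proteins. It was 0.158 for 84 genes with the symbols of cytosolic ribosomal proteins, among which the names also bring in S6 kinases. Genes of a library share its depth, so these values are descriptions.

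From the thin limbs (SDL, LDLOM, LDLIM and tAL, 30 libraries) to the thick limb and DCT (mTAL, cTAL and DCT, 22 libraries), subunits of all 5 complexes rose. The difference, as all those below, is that of segment means of log2(RPKM + 1), the second group minus the first, and calls needed both an adjusted p under 0.05 and a difference of at least 1. Of 77 members tested, 55 rose and 0 fell, while 14.4% of all genes tested were called, 6.79% of them as higher and 7.64% as lower. All 55 are structural subunits, and all 70 structural subunits tested had a positive difference. The median difference of the members was 1.63 and that of all genes tested was -0.07. By complex, 26 of 33 rose in complex I, 2 of 4 in complex II (Sdhb and Sdhc), 8 of 9 in complex III, 9 of 10 in complex IV and 10 of 14 in complex V. Of the 15 structural subunits that were not called, several are catalytic or large: Ndufs1 (1.16 ± 0.67, SE), Sdha (0.58 ± 0.64), Uqcrc2 (0.71 ± 0.54), Atp5a1 (0.68 ± 0.43) and Atp5b (0.49 ± 0.34). Among core subunits 11 of 20 rose with a median difference of 1.36, and among accessory subunits 39 of 44 with a median of 1.88; the difference between these classes was not tested.

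The 4 members with the smallest p-values in this comparison are given in full. Cox5b, a small subunit on the matrix side of cytochrome c oxidase, had a lowest, median and highest value of 3.60, 157 and 1711 RPKM in thin limbs and of 218, 1108 and 2882 in the thick limb and DCT. It rose by 2.85 ± 0.36 (SE), 7.19-fold on this scale (adjusted p = 3.76e-10). Atp5g1, 1 of 3 genes for the same proton-carrying c-ring subunit of ATP synthase, had 1.84, 130 and 5194 RPKM in thin limbs and 349, 1437 and 2992 in the thick limb and DCT, and rose by 3.31 ± 0.43 (adjusted p = 5.51e-10). The thin limb library at 5194 is LDLOM 1, and the next highest, LDLOM 9, was at 827. Uqcrq, a small subunit of complex III that sits by cytochrome b, had 0.395, 16.8 and 119 RPKM in thin limbs and 21.1, 132 and 375 beyond them, a difference of 3.03 ± 0.41 (adjusted p = 2.65e-09). Cox6a1, the form of subunit VIa found outside heart and muscle, had 120, 524 and 2596 RPKM in thin limbs and 454, 1722 and 4965 beyond them, a difference of 1.86 ± 0.28 (adjusted p = 9.87e-08). For each of the 4, thin limb libraries were lower at the median and the ranges overlapped. Without the 13 libraries rich in other cells' markers, 46 of 77 members rose and 0 fell. Uqcrc1, which rose by 1.61 ± 0.58 (adjusted p = 0.0419), was not called there (adjusted p = 0.119), nor without LDLIM 1, 2 or 3 (adjusted p = 0.077, 0.0531 and 0.0602), nor without tAL 1 and tAL 2 (0.0931).

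Start regions of members that moved together are shown for Cox5b, Uqcrq, Atp5g3 and Atp5g1, the first 3 because they hold motifs of factors known for nuclear genes of respiration and the last because it holds none. The windows are RefSeq's for GRCr8, 250 bases before to 50 after the annotated start, written 5′ to 3′ on the gene's strand with motif matches in capitals.
Cox5b, chr9:46417587-46417886, plus strand: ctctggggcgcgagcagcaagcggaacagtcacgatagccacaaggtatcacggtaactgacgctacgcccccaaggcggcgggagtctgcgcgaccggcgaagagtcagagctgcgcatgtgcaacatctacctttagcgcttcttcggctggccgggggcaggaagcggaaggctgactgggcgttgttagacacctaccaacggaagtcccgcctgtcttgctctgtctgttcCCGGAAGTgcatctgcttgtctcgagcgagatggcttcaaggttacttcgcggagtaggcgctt
Uqcrq, chr10:38089929-38090228, minus strand: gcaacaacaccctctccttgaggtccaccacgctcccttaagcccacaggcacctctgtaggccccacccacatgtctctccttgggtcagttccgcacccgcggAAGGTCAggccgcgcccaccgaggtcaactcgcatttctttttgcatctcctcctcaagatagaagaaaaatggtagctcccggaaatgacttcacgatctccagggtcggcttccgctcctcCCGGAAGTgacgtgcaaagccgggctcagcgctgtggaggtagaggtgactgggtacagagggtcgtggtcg
Atp5g3, chr3:79220615-79220914, minus strand: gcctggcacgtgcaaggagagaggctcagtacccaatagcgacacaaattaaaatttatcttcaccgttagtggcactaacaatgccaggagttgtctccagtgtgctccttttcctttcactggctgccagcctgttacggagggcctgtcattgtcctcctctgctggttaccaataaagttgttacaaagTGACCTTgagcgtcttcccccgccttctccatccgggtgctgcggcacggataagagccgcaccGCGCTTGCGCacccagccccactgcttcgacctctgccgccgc
Atp5g1, chr10:81523296-81523595, minus strand: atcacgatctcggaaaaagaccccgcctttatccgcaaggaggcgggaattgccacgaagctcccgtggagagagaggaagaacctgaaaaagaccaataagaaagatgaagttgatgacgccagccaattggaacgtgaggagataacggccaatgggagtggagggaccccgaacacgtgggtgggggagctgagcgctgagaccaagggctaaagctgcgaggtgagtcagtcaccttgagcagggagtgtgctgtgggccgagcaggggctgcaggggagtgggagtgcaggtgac
The capitals in Cox5b mark an ETS motif (CCGGAAGT) that begins 14 bases before the start. Uqcrq holds an ERR motif (AAGGTCA) 145 bases before the start and an ETS motif 22 bases before it. Atp5g3 holds an ERR motif on the opposite strand 57 bases before the start and an NRF1 motif from base 8 after it.

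Windows were found for 69 of the 82 members, 62 of them structural subunits. Both strands were searched for the 3 motifs named and for a YY1 motif (AAGATGGC), and overlaps between motifs were allowed. The NRF1 motif was in 14 of 62 structural subunits (22.6%, against 4.71% of all 27457 windows and 9.97% of the 8985 windows of tested genes). The ERR motif was in 11 (17.7%, against 4.37% and 2.90%), the YY1 motif in 14 (22.6%, against 3.44% and 5.53%) and the ETS motif in 7 (11.3%, against 4.01% and 8.39%). At least 1 of the 4 motifs was in 34 of 62 windows (54.8%, against 15.2% and 23.8%), and none in the other 28. The NRF1 motif was in 5 of 14 windows of complex V and in 0 of 8 of complex IV. These are matches of letters in 1 window per gene.

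**Figure D3:**
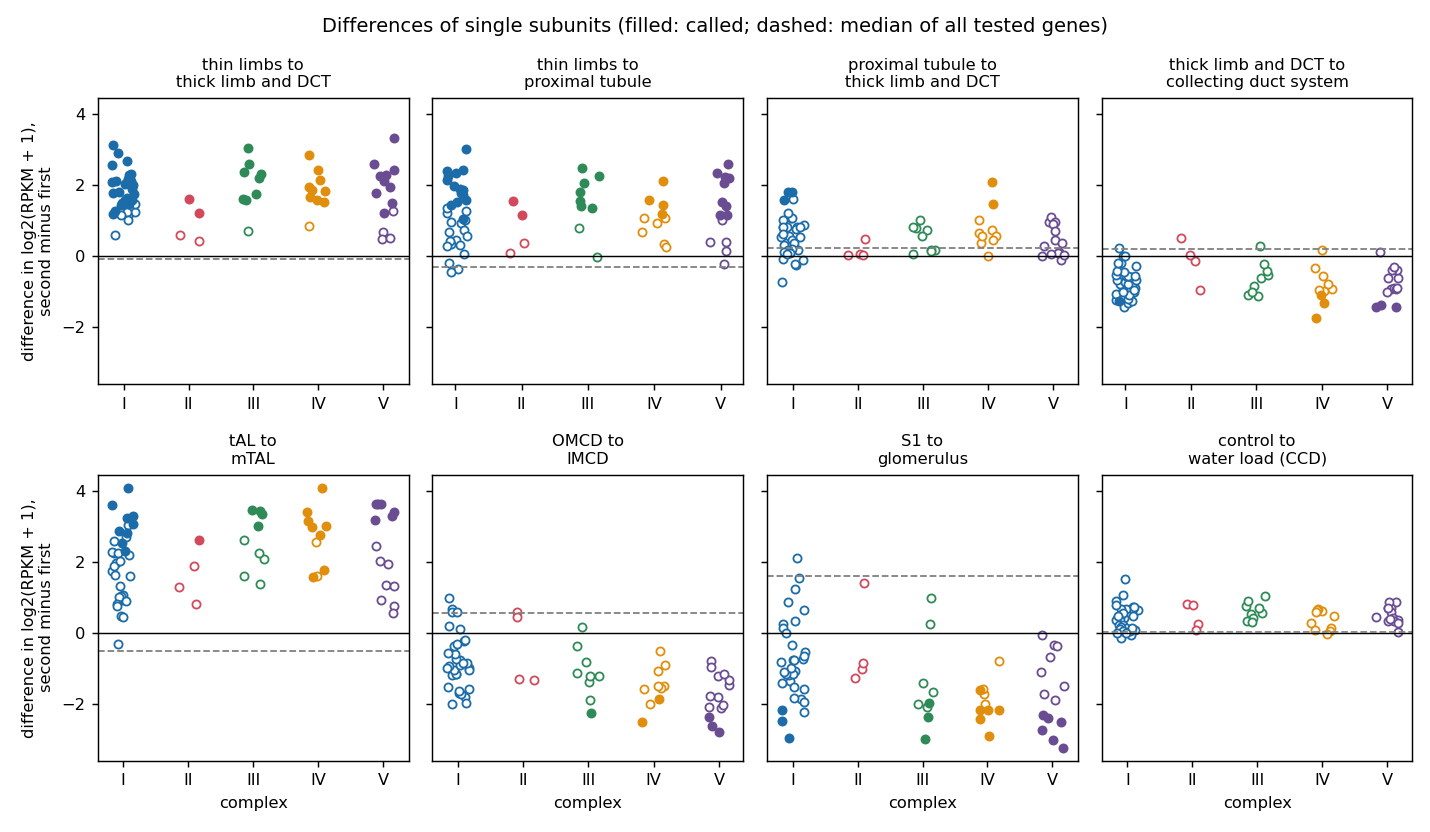
Differences in log2(RPKM + 1), second group minus first, of every tested structural subunit (points, by complex on the horizontal axis) in 8 comparisons. Filled points are called, and the dashed line is the median of all genes tested. From thin limbs to thick limb and DCT all 70 points are above 0; in the water-load panel no point is filled.

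The proximal tubule (S1 to S3, 21 libraries) also lay above the thin limbs. Here 38 of 77 members rose and 1 fell, where 24.4% of all genes tested were called, 8.49% as higher and 15.9% as lower (940 and 1758 genes; 1285 and 1215 with quantile normalization). The median difference of the members was 1.17 and that of all genes -0.30. Complex III had 7 of 9 subunits higher, complex V 9 of 14, complex I 15 of 33, complex IV 4 of 10 and complex II 2 of 4. Uqcrq rose by 2.48 ± 0.41 (adjusted p = 5.47e-07), from a median of 16.8 RPKM in thin limbs to 84.7 in the proximal tubule. Atp5i, subunit e of ATP synthase, had a median of 94.0 RPKM in thin limbs and 607 in the proximal tubule, a difference of 2.58 ± 0.43 (adjusted p = 6.08e-07). Ndufb7, an accessory subunit of complex I, had medians of 54.5 and 235 RPKM (3.03 ± 0.52, adjusted p = 1.28e-06). The fourth is Cox5b, with medians of 157 and 605 RPKM (2.12 ± 0.37, adjusted p = 1.44e-06). The member that fell is Atp5s, no structural subunit, by 2.24 ± 0.63 (adjusted p = 0.00402), from a median of 107 RPKM to 17.1. One of the 38 is Cox8b, whose values rest on the PA-seq table and are described with the isoforms.

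Between the 2 regions rich in mitochondria few members were called. From the proximal tubule to the thick limb and DCT, 5 of 77 members rose and 0 fell (11.4% of all genes called, 5.89% as higher and 5.52% as lower). The median difference was 0.54, beside 0.22 for all genes tested. Cox7b, a small membrane subunit of complex IV, had a lowest, median and highest value of 12.3, 145 and 594 RPKM in the proximal tubule and 122, 332 and 958 in the thick limb and DCT, a difference of 1.46 ± 0.39 (adjusted p = 0.00346). Cox5a, the partner of Cox5b on the matrix side, had 2.74, 90.6 and 916 RPKM and then 72.8, 484 and 1774 (2.07 ± 0.63, adjusted p = 0.0131). Ndufc2, an accessory subunit of complex I, rose by 1.80 ± 0.61 (adjusted p = 0.0332), and Ndufb6, another one, by 1.59 ± 0.57 (adjusted p = 0.0453). The count depended on the treatment of libraries: it was 2 without the 13 libraries rich in other cells' markers, where Ndufc2 was not called (1.57 ± 0.66, adjusted p = 0.127), 20 with quantile normalization and 22 with array quality weights.

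Along the proximal tubule itself and along the thick limb no member was called. From S1 to S3, 0 of 77 members passed, where 1.88% of all genes did (0.966% higher and 0.912% lower), and 3 members and 833 of 11078 genes had an unadjusted p under 0.05 by limma. The median difference was 0.04, and 39 of 77 were positive. From mTAL to cTAL, 0 of 77 passed, where 1.03% of all genes did, 0.993% as higher and 0.0361% as lower (110 and 4 genes; 49 and 10 with quantile normalization), and 1 member and 1234 of 11078 genes had an unadjusted p under 0.05. The members' median was 0.29 and that of all genes 0.55. With array quality weights 4 members were called in the first and 1 in the second, and 0 in the other settings tried. These tests do not show that the levels are alike.

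The step from tAL to mTAL had the largest median difference of the 10 comparisons of 2 groups. Of 77 members, 28 rose and 0 fell, where 6.34% of all genes were called, 1.03% as higher and 5.31% as lower (114 and 588 genes; 345 and 386 with quantile normalization). Their median difference was 2.03, beside -0.51 for all genes tested, and 69 of 70 structural subunits were positive. Complex IV had 8 of 10 subunits higher (median 2.86), complex III 4 of 9 (2.60), complex V 6 of 14 (2.22), complex I 9 of 33 (2.03) and complex II 1 of 4 (1.58). In Cox5b, tAL libraries held 3.60, 98.5 and 163 RPKM (lowest, median and highest) and mTAL libraries 218, 1054 and 2193; it rose by 4.08 ± 0.67, 16.9-fold on this scale (adjusted p = 1.07e-05), and the groups did not overlap. Atp5g3, the c-ring gene 3, held 8.88, 170 and 624.5 RPKM in tAL and 502, 1487 and 2354 in mTAL (3.17 ± 0.61, adjusted p = 0.000254). Ndufb9, an accessory subunit of complex I, rose by 4.08 ± 0.79 (adjusted p = 0.000271), and Atp5e, the epsilon subunit of the ATP synthase stalk, by 3.63 ± 0.76 (adjusted p = 0.000696). Libraries of both groups overlapped in these 3. They did not in Cox5b, Atp5g1 and Ndufa6, 3 of 77 members, where 0.153% of all genes lay wholly higher.

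Several measured facts move with this step. The endothelial list summed to 0.859 to 3071 RPKM in tAL and 0.0518 to 103 in mTAL, through tAL 1 and tAL 2, and without these 2 libraries 20 members rose and 0 fell. The leukocyte list summed to 0.550 to 746 RPKM in tAL (median 81.2) and 420 to 1184 in mTAL (median 892). Cd74 had medians of 7.69 RPKM in tAL and 632 in mTAL, while those of Lyz2 were 22.7 and 24.6. C1qa, C1qb and Cd68 had medians of 0.146, 0.0992 and 0 in tAL and of 0, 0.011 and 0.035 in mTAL, and Ptprc was at 0 in both. The part of this list in the result was not tested. Without all 13 libraries rich in other cells' markers 15 rose, with a median difference of 1.87. Fitted on tAL and mTAL alone, 12 rose. Digestion with collagenase took 90 minutes for the inner medulla, where the tAL lies, and 50 minutes for the outer medulla, so digestion time and segment cannot be told apart.

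From the thick limb and DCT to the collecting duct system (CNT, CCD, OMCD and IMCD, 32 libraries), 7 of 77 members fell and 0 rose, where 8.49% of all genes were called, 2.53% as lower and 5.96% as higher (280 and 660 genes; 565 and 479 with quantile normalization). The median difference was -0.77, beside 0.21 for all genes tested. Cox6a1 had a median of 1722 RPKM in the thick limb and DCT and 820 in the collecting duct system, a difference of -1.09 ± 0.27 (adjusted p = 0.00242). Cox5b had medians of 1108 and 446 RPKM (-1.32 ± 0.35, adjusted p = 0.00497). Atp5l, subunit g of ATP synthase, had 1210 and 404 (-1.42 ± 0.39, adjusted p = 0.0069), and Atp5g1 had 1437 and 524 (-1.44 ± 0.41, adjusted p = 0.0107). The others that fell are Atp5i, Ndufb9 and Cox5a. No subunit of complex II or III was among the 7. The 4 segments of this system were uneven. The members' median share was 6.30% in CNT, 6.24% in CCD and 7.38% in OMCD, but 2.60% in IMCD. IMCD had the lowest mean of log2(RPKM + 1) of the 4 segments in each of the 7 but Cox5a (6.10 in CNT and 6.67 in IMCD). Atp5g1 had means of 9.16, 9.18 and 9.72 in CNT, CCD and OMCD and 6.92 in IMCD. The part of IMCD in the count was not tested. The count depended on the processing: it was 5 without the 13 libraries rich in other cells' markers, 14 with only these segments in the fit, 23 with array quality weights and 43 with quantile normalization, which moved the median of all genes to 0.01 and that of the members to -1.25.

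From OMCD to IMCD, 6 of 77 members fell and 0 rose, where 7.47% of all genes were called, 0.993% as lower and 6.48% as higher (110 and 718 genes; 233 and 333 with quantile normalization). The median difference was -1.07, beside 0.55 for all genes tested. In Atp5g3 the OMCD libraries held 621, 1099 and 1337 RPKM (lowest, median and highest) and the IMCD libraries 39.1, 196 and 387; it fell by 2.62 ± 0.59 (adjusted p = 0.00106). Cox7b fell by 2.50 ± 0.66 (adjusted p = 0.00691), from OMCD values between 167 and 441 RPKM to IMCD values between 24.0 and 156. Atp5g1 held 416, 855 and 1558 RPKM in OMCD and 41.7, 119 and 328 in IMCD (-2.80 ± 0.76, adjusted p = 0.00941). Cox4i1 held 1583, 2687 and 4424 RPKM in OMCD and 288, 758 and 1951 in IMCD (-1.87 ± 0.55, adjusted p = 0.0183), and here the groups overlapped. The remaining 2 are Atp5o, the oligomycin sensitivity conferring protein, and Uqcr11. Libraries of the 2 groups did not overlap in Cox7b, Atp5g1, Atp5g3 and Atp5o, 4 of 77 members, where 0.307% of all genes lay wholly lower. Markers of intercalated cells, the acid- and base-secreting cells of the collecting duct, summed to 200.2 to 1980 RPKM in OMCD and 0 to 58.1 in IMCD. Principal cell markers summed to 2250 to 21905 and 2710 to 17662, mostly through Aqp2 (medians 4608 and 6087). Of the others on that list, Aqp3 had medians of 311.5 and 347.6 and Avpr2 of 472 and 371. Scnn1b had 110.5 and 0.0893, and Scnn1g 61.1 and 0.0367. The 4 thin limb markers summed to 1.17 to 9.86 RPKM in OMCD and 146 to 1028 in IMCD, and the 4 thick ascending limb markers to 6.21 to 259 and 0.00965 to 3.51, with no overlap in either list. Their part in the result was not tested, and digestion time differed here too (50 and 90 minutes).

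**Figure D4:**
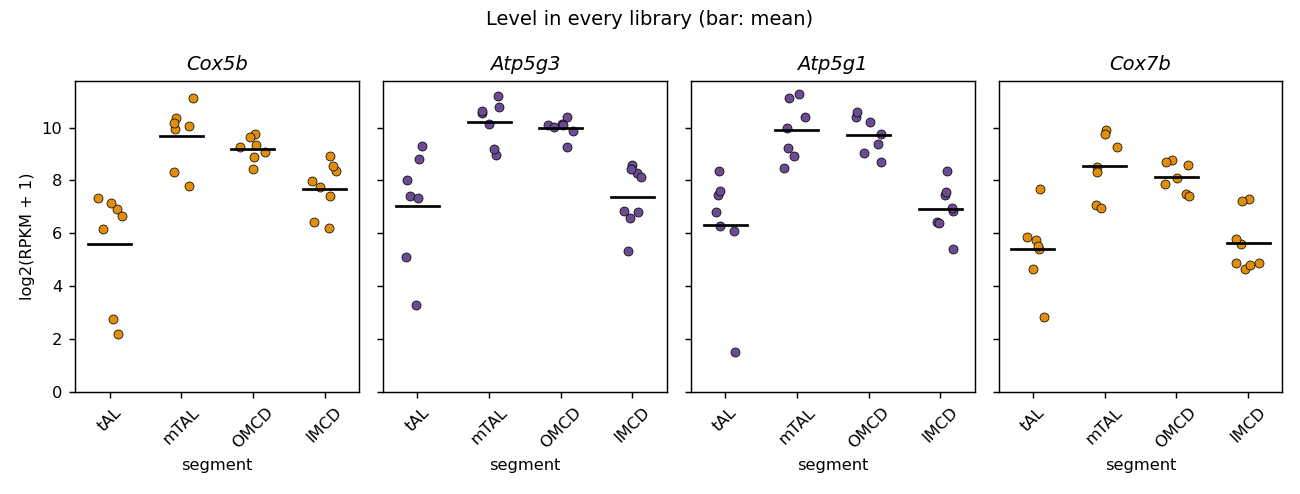
Level of Cox5b, Atp5g3, Atp5g1 and Cox7b on the log2(RPKM + 1) scale (vertical axis) in every tAL, mTAL, OMCD and IMCD library (points); bars are means. The Atp5g1 points of tAL lie below all mTAL points, and those of IMCD below all OMCD points.

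The c-ring of ATP synthase is built from 1 protein made by the 3 genes Atp5g1, Atp5g2 and Atp5g3, whose shares are described along the nephron. Their transcripts are alike in the coding part, so reads may be split between them. The size of a share also depends on each gene's transcript model, so shares are compared between segments and not between genes. The F test over segments called Atp5g1 and Atp5g3 but not Atp5g2 (adjusted p = 0.487). Of their summed RPKM, Atp5g2 made up 9.26% ± 5.61 (SD, n = 8) in DCT, 12.5% ± 9.10 (n = 7) in cTAL and 17.8% ± 5.47 (n = 7) in mTAL, and 37.5% ± 15.1 (n = 7) in tAL, 40.6% ± 21.3 (n = 4) in LDLIM and 40.5% ± 16.9 (n = 8) in IMCD. Atp5g1 went the other way, from 43.0% ± 17.3 in DCT and 44.8% ± 18 in cTAL to 21.8% ± 14.5 in tAL and 13.3% ± 9.69 in LDLIM. Not all thin limbs followed. In LDLOM (n = 9) Atp5g1 made up 35.3% ± 26.7, beside 37.2% ± 10.6 in mTAL, and Atp5g2 25.7% ± 20. In SDL (n = 10) Atp5g1 made up 18.9% ± 15.1 and Atp5g2 29.3% ± 15.1. Atp5g3 stayed between 35.6% ± 17.6 (IMCD) and 54.6% ± 19.2 (CNT, n = 6). From thin limbs to thick limb and DCT, Atp5g1 rose by 3.31 ± 0.43 and Atp5g3 by 2.12 ± 0.33 (adjusted p = 2.28e-07), whereas the difference of Atp5g2 was 0.51 ± 0.40 (adjusted p = 0.423). The difference between the 3 genes was not tested.

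Isoforms known from heart, muscle, lung or testis were at or near 0 in most tubules. Cox6a2, the heart and muscle form of subunit VIa, had a highest segment mean of 0.0942 RPKM (IMCD), where its partner Cox6a1 had 515 ± 323 (n = 8). Cox8c was listed at 0 throughout and Cox6b2 stayed under 1 RPKM in every segment mean. Cox8b, the heart and muscle form of subunit VIII, stands apart: it averaged 30.2 RPKM over the tubule libraries in the table with PA-seq data and 0.10 in the table without. In the CCD it had 20.2 ± 15.5 RPKM (n = 11) in the former, while the CCD controls of the water-load experiment, which come from another table, held 0 to 0.0234. Its rise from thin limbs to the proximal tubule (1.79 ± 0.56, adjusted p = 0.00996) could not be tested in the table without PA-seq data, where it did not pass the filter, and it was not called without the libraries holding fewer than 2500 genes (0.93 ± 0.53, adjusted p = 0.178). Cox8a, the ubiquitous form, had means of 150 ± 176 RPKM in LDLIM (n = 4) to 918 ± 834 in cTAL (n = 7). Cox7a2, the form of subunit VIIa found outside heart, had means of 3.08 ± 3.57 RPKM in tAL (n = 7) to 42.7 ± 47.1 in S1 (n = 7).

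Ndufa4, now assigned to complex IV, had means of 78.6 ± 80.0 RPKM in tAL (n = 7) to 527.5 ± 373 in cTAL (n = 7). Cox4i2, the lung form of subunit IV, and Ndufa4l2, a paralog of Ndufa4 induced by low oxygen, marked glomeruli and a few tubule libraries. Both were at 1 RPKM or more in all 5 glomeruli, and in 16 (Cox4i2) and 5 (Ndufa4l2) of the 105 tubule libraries. Cox4i2 reached 474 RPKM in SDL 10 and 432 in mTAL 4, and lay at 41.2 to 60.5 in SDL 1, 2, 5 and 7. The pericyte and mesangium list (Pdgfrb, Rgs5, Acta2, Tagln and Itga8) summed to 100 RPKM or more in 5 of the 10 tubule libraries with Cox4i2 at 10 RPKM or more, and in 1 of the other 95. In SDL 10 it was 186 RPKM, and in mTAL 4 it was 1.09. Ndufa4l2 was highest among tubules in LDLOM 5, at 73.0 RPKM with a list of 134, and in DCT 2, at 17.0 RPKM with a list of 0.186. Cox4i2 is the one isoform called by the F test over segments (adjusted p = 0.000616), and neither gene was called between 2 groups of segments.

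**Figure D5:**
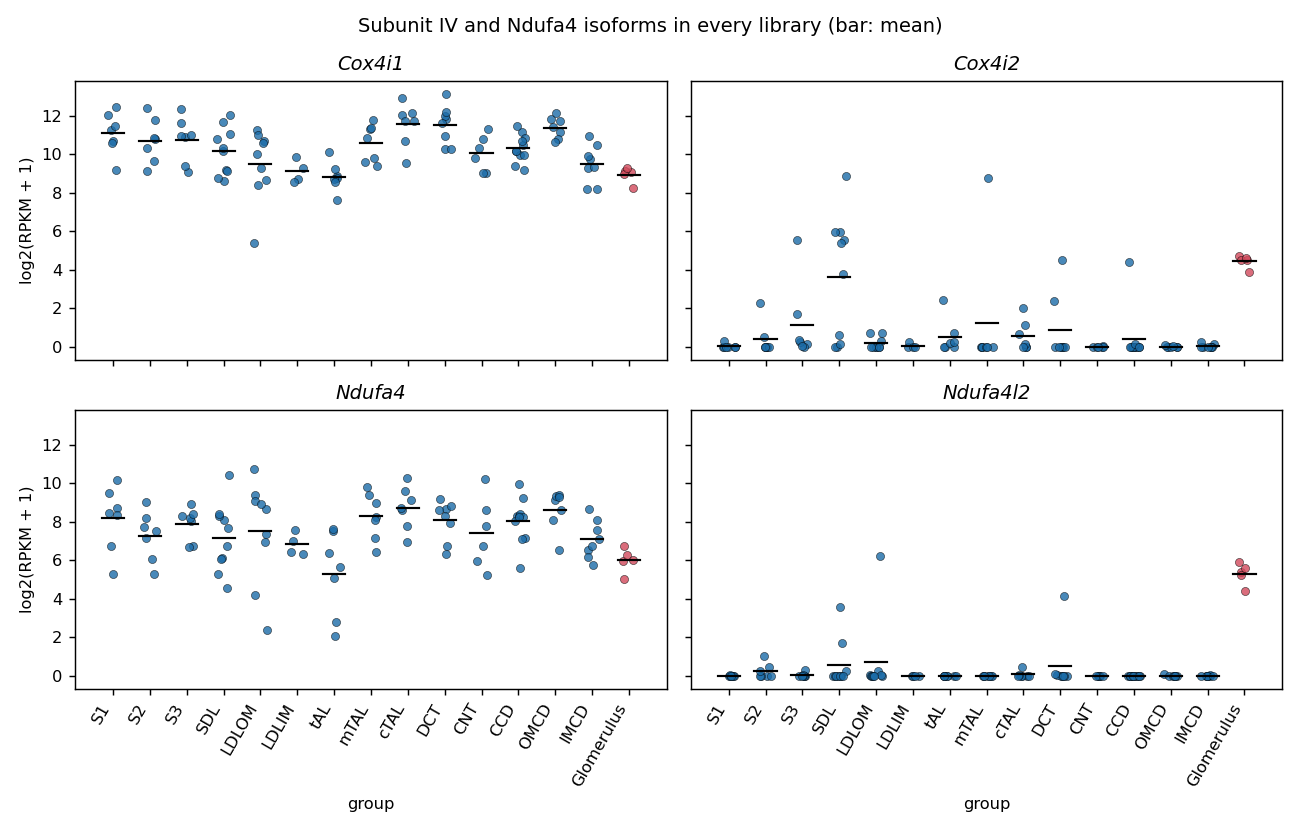
Level of Cox4i1, Cox4i2, Ndufa4 and Ndufa4l2 on the log2(RPKM + 1) scale (vertical axis) in every library (points) by group (horizontal axis); bars are means, blue is tubule and red is glomerulus. Ndufa4l2 is at 20.2 RPKM or more in the 5 glomeruli and at 0 or near it in most tubule libraries.

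In glomeruli these 2 genes rose while respiratory subunits fell. Against S1, the tubule part that leaves the glomerulus, 2 of 78 members tested rose and 18 fell, where 43.9% of 11456 genes were called, 40.6% as higher and 3.26% as lower (4655 and 373 genes; 1113 and 974 with quantile normalization). The members' median difference was -1.15 and that of all genes 1.60; glomerulus libraries held 8818 to 9483 genes. Ndufa4l2 was at 0 in 6 S1 libraries and at 0.0421 RPKM in the other one, and at 41.0, 36.3, 59.2, 47.0 and 20.2 RPKM in glomeruli 1 to 5 (5.29 ± 0.47, adjusted p = 4.77e-18). Cox4i2 was at 0 in 6 S1 libraries and at 0.254 RPKM in the other one, and at 13.9, 25.7, 22.1, 21.7 and 23.8 RPKM in glomeruli (4.41 ± 0.90, adjusted p = 3e-05). The groups did not overlap in these genes or in Cox6b2, 3 of 78 members, where 29.4% of all genes lay wholly higher. Cox6b2 was at 1 RPKM or more in 3 glomeruli, 1 tAL and 1 cTAL library, and passed the filter only through the glomeruli. Its lack of overlap is therefore no separate result. The pericyte and mesangium list summed to 195 to 287 RPKM in glomeruli, with all 5 markers but Acta2 above 10, and to 0.0287 to 12.4 in S1, with Acta2 and Itga8 at 0; its part in these results was not tested.

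The 18 members that fell in glomeruli come from complexes I, III, IV and V, and none from complex II. Uqcr10 had S1 values of 3.55, 39.5 and 75.8 RPKM (lowest, median and highest) and glomerulus values of 1.98, 2.36, 3.62, 1.47 and 2.25, with 1 glomerulus above the lowest S1 library (-3.00 ± 0.77, adjusted p = 0.00108). Cox8a had S1 values of 137, 818 and 2044 RPKM and glomerulus values of 29.8, 103, 121, 95.8 and 120 (-2.91 ± 0.76, adjusted p = 0.00115), without overlap. Atp5g1 had S1 values of 120, 856 and 1854 RPKM and glomerulus values of 35.1, 123, 85.4, 97.3 and 90.8 (-3.23 ± 0.85, adjusted p = 0.00141). Ndufb2, an accessory subunit of complex I, had S1 values of 35.5, 227 and 522 RPKM and glomerulus values of 8.43, 22.4, 25.6, 19.8 and 37.9 (-2.97 ± 0.83, adjusted p = 0.0027). Each gene was lower in glomeruli at the median. Groups did not overlap in Ndufb9, Cox8a, Atp5i and Atp5j2, 4 of 78 members, where 1.17% of all genes lay wholly lower. With the number of detected genes as a covariate 12 members were called in place of 20. Without the 3 S1 libraries rich in leukocyte markers 2 rose and 18 fell.

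In CCD of rats under DDAVP, a model of escape from vasopressin when water is loaded, no member passed the test. At an adjusted p under 0.05 by limma, 0 of 74 members and 0.153% of 8492 genes were called, 0.0942% as higher and 0.0589% as lower. At an unadjusted p under 0.05 there were 11 members and 632 genes. Same-numbered control and water-loaded libraries deviated together, and with the number as a block 0 members and 29 genes were called, with 25 members and 917 of 8492 genes at an unadjusted p under 0.05. Of the 74 members, 68 had a positive difference, with a median of 0.46, beside 0.02 for all genes; the members' share of summed RPKM was 7.91%, 6.90%, 6.32% and 8.09% in controls 1 to 4 and 9.16%, 9.25%, 8.54% and 10.8% in water-loaded rats 1 to 4. All 4 water-loaded values lay above the controls.

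The 4 members with the smallest p-values under water load span 3 complexes. Ndufs1 held 29.2, 56.9, 19.1 and 28.9 RPKM in controls and 136, 134, 73.1 and 49.6 in water-loaded rats, a difference of 1.51 ± 0.40 (adjusted p = 0.246). The lowest water-loaded library lay below the highest control. Uqcrc2, core protein 2 of complex III, held 191, 279, 349 and 573 RPKM and then 539, 459, 864 and 895 (1.04 ± 0.35, adjusted p = 0.497). Sdha held 156, 233, 136 and 276 RPKM and then 284, 342, 434 and 304 (0.81 ± 0.29, adjusted p = 0.545), and Ndufa10, an accessory subunit of complex I, held 54.3, 46.1, 35.4 and 45.3 and then 90.6, 78.6, 70.1 and 60.3 (0.72 ± 0.27, adjusted p = 0.586). In Sdha and Ndufa10 the groups did not overlap, as also in Ndufv1, Ndufv3 and Ndufa10l1: 5 of 74 members, where 2.18% of all genes lay wholly higher. Ndufa10 and the Ndufa10-like entry are near-identical, and their reads may be shared. In the other direction the smallest p-values were those of Atp5s (-0.49 ± 0.37, adjusted p = 0.833), Ndufa1 (-0.14 ± 0.31, 0.962), Ndufa7 (-0.05 ± 0.28, 0.993) and Cox8a (-0.04 ± 0.27, 0.996). Principal cell markers, Aqp2 chief among them, summed to 12697 to 20857 RPKM in controls and 6321 to 12357 in water-loaded rats, and intercalated cell markers to 2094 to 2741 and 2658 to 3279; their part in the members' share was not tested.

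Other genes of mitochondria, and cytosolic ribosomal proteins beside them, are given by counts over lists. From thin limbs to thick limb and DCT, 24 of 67 mitochondrial ribosomal proteins rose (median 1.21), 3 of 28 assembly factors (0.49), 3 of 12 citric acid cycle enzymes (0.95) and 3 of 8 carriers and cytochrome c (0.89), while 0 of any of these fell. Among all genes tested, 6.79% were called as higher and 7.64% as lower. Of 84 genes with the symbols of cytosolic ribosomal proteins, a list that by its names also holds S6 kinases, 1 rose (Rpl36al) and 2 fell (Rpl13a and the kinase Rps6kb1), with a median of 0.07. Among the citric acid cycle genes, Mdh2 rose by 1.34 ± 0.39 (adjusted p = 0.00868) and Idh3g by 3.17 ± 0.66 (adjusted p = 0.00011). Ckmt1b, a mitochondrial creatine kinase, rose by 3.91 ± 0.64 (adjusted p = 6.48e-07), and Slc25a4 and Slc25a5, which exchange ADP for ATP, by 1.37 ± 0.47 and 1.68 ± 0.45 (adjusted p = 0.0297 and 0.00432). Of 15 regulators 1 rose, near the 6.79% of all genes tested, so the count is no result about regulators. It was Esrrb, an estrogen-related receptor, with a rise of 1.59 ± 0.40 (adjusted p = 0.00161). These genes were named after their values were seen.

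From thin limbs to the proximal tubule, 21 of 67 mitochondrial ribosomal proteins rose, where 8.49% of all genes tested did. Cs, citrate synthase, fell by 2.54 ± 0.59 (adjusted p = 0.000374). Esrrb was lower in the proximal tubule than in thin limbs (-1.07 ± 0.40, adjusted p = 0.0345). From the proximal tubule to the thick limb and DCT, Esrrb rose by 2.66 ± 0.42 (adjusted p = 1.51e-07) and Esrrg, another receptor of this family, by 1.33 ± 0.44 (adjusted p = 0.0254). Esrrb was lower again in the collecting duct system than in the thick limb and DCT (-2.67 ± 0.38, adjusted p = 2.55e-08). From tAL to mTAL, 1 of 67 mitochondrial ribosomal proteins rose and 1 fell (median 0.68), and of the 84 genes of the cytosolic list 0 rose and 2 fell (median -0.14). Of all genes tested 1.03% rose and 5.31% fell there. From OMCD to IMCD, 0 of 67 and 0 of 84 fell (medians 0.18 and 0.26), where 0.993% of all genes did, and Ckmt1b fell by 4.94 ± 1.14 (adjusted p = 0.00132). In water-loaded CCD all 12 citric acid cycle enzymes and all 8 carriers had positive differences (medians 0.47 and 0.70), and 0 of them were called.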

How the data were processed

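RPKM values were deposited by the authors in 3 tables: the segments and glomeruli with and without PA-seq data, and the water-load experiment. Per the submitters' processing notes, Trimmomatic 0.32, STAR 2.3.0-r192, SAMtools and HOMER were used with build rn5. Counts were not used here, so depth is unknown and only the number of libraries sets the precision. Values were set on the log2(RPKM + 1) scale, genes were kept with at least 1 RPKM in 4 or more libraries of the fit, and limma 3.58.1 (R 4.3.3) fitted group means with a trended prior, in 1 fit of 105 tubule libraries, 1 of 110 with glomeruli and 1 of 8 for water load. Tests were two-sided with Benjamini-Hochberg adjustment over all genes tested, at an adjusted p under 0.05 with an absolute difference of at least 1 (no minimum difference for water load and the F test). Regions were compared as means of segment means. The fit was tested on simulated data.

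Members and lists were chosen with earlier results of these data known. Named members are up to 4 called per comparison and direction with the smallest adjusted p (under water load the 4 smallest p each way), Ndufs1, Sdha, Uqcrc1, Cox4i1 and Atp5b, and isoform pairs. Others were named after their values were seen, and some results of single genes are not reported here. Of several entries of a symbol the one with the highest mean was kept. In the water-load experiment same-numbered libraries deviated together (correlations 0.209 to 0.314 in 4 pairs), and the pairing comes from these values and the label numbers. Glomerulus columns of the table without PA-seq data correlated with the other table at 0.00858 to 0.0137 and were not used. The 7 whole-kidney PA-seq samples were not analysed. Python 3.11.15 with numpy 2.4.6, pandas 2.3.3 and matplotlib 3.10.9 was used for counts, motifs and plots. Alternatives were another pseudocount (0.1), no filter, quantile normalization, a replicate block, detected genes as a covariate, array quality weights, the other table, fewer libraries and smaller fits.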

Additional observations from a re-analysis of the deposited data

Results flagged for a closer look

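In groups of 4 to 10 libraries, a library was singled out where its gap to the nearest other one took up an unusually large part of the group's range. The member share and 5 core genes gave 96 groups, of which 21 had such a library. The rule singles out about 1 in 20 groups where values are normally distributed. Here it was applied to shares and RPKM without a log scale, which are skewed to high values. The 21 therefore cannot be read as an excess over chance. For the share of summed RPKM these were LDLOM 1 at 13.67% (next 6.79%), LDLIM 4 at 3.884% (next 1.93%), tAL 7 at 5.375% (next 2.45%) and CNT 3 at 14.09% (next 7.76%), all high, and Glomerulus 1 at 1.362%, low (next 2.17%). LDLOM 1 is also the library with a proximal tubule list of 2331 RPKM.

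Ndufs1 stood out in 6 segments, each time in 1 high library: S3 4 at 97.37 RPKM (next 13.2), SDL 8 at 173.2 (next 64.7), tAL 3 at 206.2 (next 86.0), mTAL 4 at 566.4 (next 88.9), cTAL 7 at 161.2 (next 17.9) and OMCD 7 at 220.9 (next 92.8). The mTAL library is the one with Cox4i2 at 432 RPKM. Sdha stood out in S2 7 at 194.5 RPKM (next 70.9) and tAL 7 at 286.9 (next 109.8).

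Uqcrc1 stood out in LDLOM 1 at 1042 RPKM (next 402), cTAL 5 at 1424 (next 503.8) and the fourth water-loaded CCD library at 2393 (next 1063). Cox4i1 stood out in DCT 5 at 8988 RPKM (next 4705) and, as a low value, in the third CCD control at 676.6 (next 1615). Atp5b stood out in LDLIM 4 at 3590 RPKM (next 766.3), OMCD 5 at 4659 (next 1801) and IMCD 1 at 1657 (next 1035).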

How the results depend on the processing

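Of 133 alternative counts of called members, 113 were within 1.5 times the reported count and 20 were not; the cause was not tested. With quantile normalization the counts were 20 from proximal tubule to thick limb and DCT (5 as reported), 43 from there to the collecting duct system (7), 47 from tAL to mTAL (28), 10 from OMCD to IMCD (6), 65 in the F test (41) and 35 from S1 to glomerulus (20); it moved the median of all genes from -0.51 to 0.01 from tAL to mTAL, from 0.55 to -0.01 from OMCD to IMCD and from 1.60 to -0.07 from S1 to glomerulus. With array quality weights they were 22, 23, 16 and 18 in the first 4 of these, 37 from S1 to glomerulus, 4 from S1 to S3 and 1 from mTAL to cTAL. With only the segments compared in the fit they were 14 from thick limb and DCT to collecting duct system, 12 from tAL to mTAL and 32 from S1 to glomerulus. The count was 11 from thick limb and DCT to collecting duct system without libraries under 2500 genes, and 12 from S1 to glomerulus with detected genes as a covariate. Without the 13 libraries rich in other cells' markers, an alternative chosen after seeing the data, it was 2 from proximal tubule to thick limb and DCT and 15 from tAL to mTAL.

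Leaving out 1 library at a time gave 50 to 55 called members from thin limbs to thick limb and DCT, 36 to 38 from thin limbs to proximal tubule, 39 to 40 in the F test, 16 to 20 from S1 to glomerulus and 0 under water load. With a replicate block the counts were 54, 42, 4, 8, 27, 7, 0, 0 and 42 in the comparisons of segments (55, 39, 5, 7, 28, 6, 0, 0 and 41 without it), 25 from S1 to glomerulus and 0 under water load. Segment libraries share only a number, and the correlations of same-numbered libraries ran from -0.18 to 0.33. Over 160 called results of members, 0 of 2177 alternative values had the opposite sign. Differences near 0 under water load changed sign. Leaving out 1 library at a time, Ndufa1 ran from -0.338 (without control 2) to 0.108 (without control 4), and Ndufa7 from -0.278 (without control 2) to 0.068 (without control 3), with 0.043 without control 4. Cox8a ran from -0.087 (without control 2) to 0.073 (without water-loaded library 3), with 0.017 without control 1, and was 0.007 with detected genes as a covariate.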
